A study of Mus musculus with 48 samples.

Results

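Liver RNA was compared between mice lacking angiotensinogen in hepatocytes (hepAGT-/-, here KO) and littermates without that deletion (hepAGT+/+, here WT), all kept at room temperature. The libraries were chosen by tissue, genotype and housing in their titles, which gave 4 KO and 4 WT libraries, 8 of the 48 in the series. All of these mice were male, were held at 20 to 22 °C, and ate a Western diet (0.2% cholesterol, 21% of milk fat) over 12 weeks. Liver from 4 KO and 4 WT mice held at 30 °C, called thermoneutrality (TN), and brown fat (BAT) and epididymal white fat (eWAT) from the room temperature housing, again 4 KO and 4 WT each, are used for reference. They share the sex and the diet. The promoter that drives the deletion, the floxed allele, the strain background and the age of the mice are not given in the labels. No mice on another diet enter the comparison, so each value describes livers under a Western diet. The study asked about body fat and fatty liver under TN housing, and the room temperature livers serve as its reference at ordinary housing.

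Angiotensinogen is a protein that the liver secretes into blood, where renin and then angiotensin-converting enzyme cut it into angiotensin peptides that raise blood pressure. Hepatocytes are its main source in the circulation, while fat and kidney also make some. Liver that takes in more fatty acid than it burns or exports stores the excess as triglyceride in lipid droplets, which are coated by perilipins and enlarged by proteins of the CIDE family. Oxidation of fatty acids in liver is driven in large part by the nuclear receptor PPARα, and export runs through apolipoprotein particles.

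Total counts per library ran from 23711728 to 35050125 in WT and from 25821280 to 31538504 in KO, so depth overlapped between the genotypes. Hepatocyte markers were abundant in each library, with a summed level of 53125 to 78851 CPM (counts scaled to a common library total) in WT and 72395 to 81961 in KO. The summed levels of 13 of 15 cell type marker lists overlapped between genotypes. Red blood cell markers were lower in KO without overlap, at 149 to 179 CPM in WT against 101 to 125 in KO, with Alas2 the most abundant and all 6 members tested below 0 in log2 change. Exocrine pancreas markers were higher without overlap, at most 0.299 CPM in WT against 0.635 to 1.01 in KO, with 9 of the 11 at 0 in each library. The libraries also differed in a way that genotype did not explain: the nuclear RNA Malat1 stood at 6252 CPM in WT replicate 18, 5317 in KO replicate 16 and 4433 in KO replicate 19, against 423 to 1500 in the other 5. The first principal component of the 500 most variable genes, with 34.4% of the variance, set those 3 libraries above the rest. The second, with 23.5%, held the 4 KO libraries between -10.2 and -7.43 and the 4 WT libraries between 2.86 and 18.0.

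Levels below are CPM after TMM scaling of the library totals, in WT replicates 11, 12, 15 and 18 and KO replicates 9, 10, 16 and 19, in those orders. Changes are log2 fold changes, KO minus WT, with their standard error (SE) from edgeR. A gene was called, and is said to have risen or fallen, when edgeR's quasi-likelihood test gave a p under 0.05 after Benjamini-Hochberg adjustment across the 17594 genes tested. A nominal p is the same test's p without adjustment.

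The targeted gene was examined first. Agt (ENSMUSG00000031980; GRCm38 chr8:124556534-124569706, minus strand) was at 336, 434, 424 and 276 CPM in WT, and at 174, 202, 150.2 and 143 CPM in KO. The highest KO library lay below the lowest WT library. Agt fell by 1.14 on the log2 scale (SE 0.18, adjusted p 0.0096), from 368 ± 75.5 CPM (SD, n = 4) to 167 ± 26.7 CPM, so that transcript from this locus remained in the KO libraries. Gene counts cannot say which exons the remaining reads cover, nor whether they come from hepatocytes or from other liver cells. In bulk tissue, fewer cells of a type and less RNA per cell cannot be told apart. Its promoter from RefSeq (GRCm38.p6) is shown because it is the start of the gene removed here. The window runs from 250 bases before to 50 bases after the start, and the capitals mark the letters TATAAA, 30 bases before the start.
Agt (chr8:124569657-124569956, minus strand): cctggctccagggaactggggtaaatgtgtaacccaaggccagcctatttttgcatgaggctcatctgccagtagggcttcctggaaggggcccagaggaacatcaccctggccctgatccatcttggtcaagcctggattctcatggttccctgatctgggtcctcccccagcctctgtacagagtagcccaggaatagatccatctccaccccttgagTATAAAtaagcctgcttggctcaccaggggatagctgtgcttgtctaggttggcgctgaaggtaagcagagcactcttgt
The letters TATAAA, searched on both strands, occur in 13.6% of all 32851 RefSeq promoter windows of that length. Of the 14 other genes tested within 500 kb of Agt, none was called, and their changes ran from -0.44 to 0.69.

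No other gene of the renin-angiotensin system was called. Of 14 list members tested, Agt alone was called, against 0.0853% of all genes tested. With a nominal p under 0.05, which 10.2% of all genes had, 2 were lower (Agt and Mme) and 1 higher (Agtr1a). Mme, the peptidase neprilysin, which degrades angiotensin peptides, was at 77.6, 63.4, 70.7 and 79.5 CPM in WT and at 31.0, 37.7, 50.3 and 46.1 in KO. The groups did not overlap, but the change of -0.82 (SE 0.23) had an edgeR adjusted p of 0.171 (0.0311 by DESeq2). Agtr1a, the angiotensin receptor of hepatocytes, was at 35.3 ± 5.54 CPM in WT against 49.0 ± 8.42 in KO (log2 change 0.47, adjusted p 0.252 by edgeR), and the groups overlapped. Ren1, Agtr1b, Agtr2 and Cma1 were too low to be tested, and Ace had a mean under 1 CPM in both genotypes.

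Across all genes, 15 were called, 3 higher (0.0171% of those tested) and 12 lower (0.0682%) in KO, and in each of them the 4 libraries of one genotype lay wholly above the 4 of the other. Such separation was seen in 1025 genes, 5.83% of those tested (3.00% higher and 2.83% lower). The 15 are described by what their products do.

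Among genes of lipid handling and sphingolipids, Smpd3 and Apom moved in opposite directions. Smpd3 (chr8:106252548-106337988), the neutral sphingomyelinase that cuts sphingomyelin into ceramide, was at 15.9, 10.2, 14.0 and 15.7 CPM in WT. In KO it was at 4.85, 6.04, 3.67 and 4.23 CPM. It fell by 1.57 (SE 0.22, adjusted p 0.00337). Every KO library was well below the lowest WT library, replicate 12. Apom (chr17:35128997-35132050), the apolipoprotein that carries sphingosine-1-phosphate on high-density lipoprotein, was at 79.9, 77.4, 104 and 85.3 CPM in WT and at 145, 152, 201 and 166 in KO. It rose by 0.94 (SE 0.18, adjusted p 0.0445), with the lowest KO library above the highest WT library. That call was the less secure of the pair, since without KO replicate 16 the adjusted p was 0.155, and it was under 0.05 in 1 of the 8 fits that leave out a library, while Smpd3 was called in 8 of 8.

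Several of the genes that fell encode proteins of membranes. Cntnap1, a contactin-associated membrane protein known from myelinated axons, was at 9.14, 7.64, 5.84 and 9.03 CPM in WT and at 1.62, 1.13, 2.48 and 2.62 in KO. It had the largest called change, -2.01 (SE 0.33, adjusted p 0.0129). Its locus overlaps Plekhh3 and Ccr10, so with no stated strand setting their reads may mix. Clstn3, a calsyntenin of cell membranes, was at 73.9, 57.7, 56.4 and 52.6 CPM in WT and at 28.3, 16.7, 25.6 and 34.2 in KO. It fell by 1.20 (SE 0.23, adjusted p 0.0486). The locus also makes CLSTN3B, a lipid droplet protein of adipocytes, which gene counts do not separate. Slc6a9, a glycine transporter, was at 67.0, 50.9, 65.9 and 62.7 CPM in WT and at 41.1, 32.5, 41.7 and 34.9 in KO. It fell by 0.72 (SE 0.13, adjusted p 0.0325), a smaller change with little spread.

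The other called membrane genes had the same form. Scamp5, a secretory carrier membrane protein, was at 32.0, 18.9, 21.8 and 25.0 CPM in WT and at 13.8, 15.5, 10.9 and 7.66 in KO, and fell by 1.03 (SE 0.20, adjusted p 0.0486). Ermp1, a metallopeptidase of the endoplasmic reticulum, was at 50.5, 44.5, 60.0 and 63.6 CPM in WT and at 29.3, 24.1, 29.7 and 32.4 in KO, and fell by 0.92 (SE 0.17, adjusted p 0.0445). Both had every KO library below the lowest WT library, by a narrow margin in Scamp5. Impad1, a Golgi phosphatase that clears a by-product of sulfation, was at 54.6, 62.6, 61.9 and 73.1 CPM in WT and at 39.7, 40.9, 43.1 and 36.5 in KO, and fell by 0.65 (SE 0.13, adjusted p 0.0445), the smallest called change. Plvap, which forms the diaphragms of fenestrated and caveolar endothelium, was at 41.7, 35.8, 43.5 and 36.9 CPM in WT and at 22.2, 29.2, 20.1 and 22.7 in KO (log2 change -0.75, SE 0.14, adjusted p 0.0445). Liver sinusoidal endothelial markers did not move with it: their summed level was 214 to 322 CPM in WT and 276 to 348 CPM in KO, with none of 10 at a nominal p under 0.05. No marker list for the other vessels of the liver was examined.

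The remaining called genes were regulatory or little described. Cbx7, a Polycomb chromatin protein, was at 9.14, 6.30, 9.36 and 7.61 CPM in WT and at 16.9, 13.3, 17.9 and 19.6 in KO, and rose by 1.06 (SE 0.21, adjusted p 0.0486). Its locus overlaps Apobec3, as those of Smpd3 and Plvap overlap Prmt7 and Gtpbp3 on the other strand, Slc6a9 overlaps Ccdc24 and B4galt2, and 1810055G02Rik an antisense transcript. The long non-coding RNA 9030616G12Rik (chr10:128971197-128978115) was at 5.06, 3.15, 1.65 and 3.58 CPM in WT and at 10.7, 11.0, 11.0 and 11.2 in KO. The KO libraries were nearly equal to each other, and the gene rose by 1.71 (SE 0.27, adjusted p 0.0096). Tceal8, of the TFIIS-like family, was at 37.7, 21.5, 30.2 and 32.5 CPM in WT and at 15.7, 14.6, 10.1 and 12.3 in KO, and fell by 1.21 (SE 0.20, adjusted p 0.0126). 1810055G02Rik was at 69.7, 59.9, 60.3 and 73.0 CPM in WT and at 24.1, 26.5, 48.1 and 31.0 in KO, and fell by 1.02 (SE 0.18, adjusted p 0.0201). KO replicate 16 lay nearest to WT in the latter, still without overlap. Of the 15 genes, Agt, Gm47528, Smpd3 and 9030616G12Rik were called in each of 15 alternative fits. Impad1 and Cbx7 were called in none of the 8 fits that leave out a library, with adjusted p up to 0.15 for both, and Ermp1, Apom and Clstn3 in 1 of the 8. Slc6a9, Plvap and Scamp5 were called in 2 of the 8, 1810055G02Rik in 3, Cntnap1 in 4 and Tceal8 in 6. Without KO replicate 16, Plvap, Scamp5 and Clstn3 had an adjusted p of 0.155. Cntnap1, with the largest called change, had an adjusted p of 0.157 by limma voom.

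**Figure D1:**
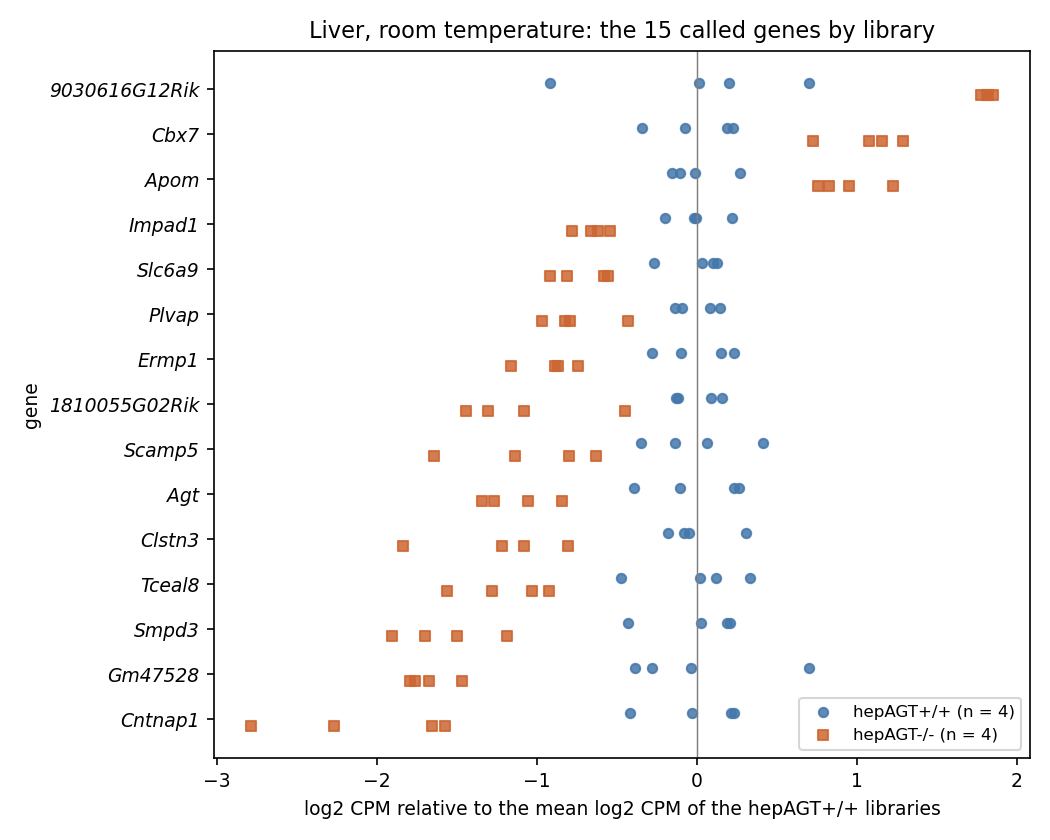
The 15 called genes in the 8 liver libraries at room temperature. Each point is one library, placed on the x axis by its log2 CPM minus the mean log2 CPM of the 4 WT libraries (circles WT, squares KO); 3 genes lie to the right and 12 to the left of WT, with no overlap in any row.

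The gene with the lowest p-value, Gm47528, lies across the start of Apoa4 on the other strand. Gm47528 (chr9:46239841-46242032, minus strand, a transcript whose annotation awaits experiment) was at 37.4, 17.6, 18.9 and 22.5 CPM in WT and at 8.32, 7.20, 6.63 and 6.77 in KO. It fell by 1.74 (SE 0.23, adjusted p 0.0023). Apoa4 (chr9:46240696-46243459, plus strand), an apolipoprotein of chylomicrons and high-density lipoprotein, was at 2076, 911, 878 and 1033 CPM in WT and at 291, 374, 397 and 376 in KO. The 4 KO libraries were alike and all below WT, while WT replicate 11 was far above the other WT libraries (without it, the change was -1.38). Its change of -1.77 (SE 0.33) had an edgeR adjusted p of 0.0797 and a DESeq2 adjusted p of 0.000265. Gm10680, a second minus-strand transcript in Apoa4, had a change of -1.95 (SE 0.36, edgeR adjusted p 0.0797). The strand setting of the counting is not given in the sources used here, so reads of these 3 overlapping genes cannot be told apart. The other apolipoprotein genes of the cluster, Apoa1, Apoc3 and Apoa5, had changes of 0.17, 0.14 and 0.04, none of them called, with groups that overlapped. The Apoa4 promoter window from RefSeq (GRCm38.p6) is shown because all of it lies inside the annotated span of Gm47528. It was searched on both strands for the letters AGGTCA, taken up below, and held none, so no capitals are marked.
Apoa4 (chr9:46240594-46240893, plus strand): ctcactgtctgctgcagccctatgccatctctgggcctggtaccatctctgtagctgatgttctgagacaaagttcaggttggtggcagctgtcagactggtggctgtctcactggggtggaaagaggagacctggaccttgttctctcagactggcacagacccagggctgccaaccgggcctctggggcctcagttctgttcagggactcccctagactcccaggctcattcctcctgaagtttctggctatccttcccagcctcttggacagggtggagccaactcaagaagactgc

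Among genes of the lipid droplet and of fatty acid uptake, lower members outnumbered higher ones in KO. None of the 27 was called by edgeR, 10 were lower and none higher at a nominal p under 0.05 (all genes 4.95% lower and 5.27% higher), and 6 had all KO libraries below all WT libraries (2.83% of all genes). Of the 27, 22 had a change below 0, and the median was -0.31, beside 0.02 over all genes tested. DESeq2 called 5 of the 27 lower (0.807% of all genes). The list was drawn up with earlier results on these genes known, so its direction is a description.

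Cidec, which enlarges lipid droplets by fusing them, was at 87.6, 21.9, 40.6 and 52.8 CPM in WT and at 4.60, 1.00, 8.91 and 13.0 in KO. The groups did not overlap, and the change was -2.89 (SE 0.75, edgeR adjusted p 0.194, DESeq2 0.0066). Cidea, its relative, was at 19.5, 4.76, 6.85 and 28.9 CPM in WT and at 0.453, 0.0645, 0.257 and 4.73 in KO. The groups nearly met, at WT replicate 12 and KO replicate 19, and the change was -3.48 (SE 1.41, edgeR adjusted p 0.404). Mogat1, a monoacylglycerol acyltransferase of triglyceride synthesis, was at 10.2, 3.23, 0.612 and 6.14 CPM in WT and at 0.194, 0.516, 0.643 and 0.539 in KO. WT replicate 15 lay within the KO range, and the change was -3.41 (SE 0.81, edgeR adjusted p 0.128).

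Cd36, which takes up fatty acids at the cell surface, was at 192, 108, 136 and 167 CPM in WT and at 87.4, 51.5, 53.1 and 86.0 in KO. All KO libraries were below WT, with a change of -1.11 (SE 0.23, edgeR adjusted p 0.0826). Without WT replicate 12 the adjusted p was 0.04, and over all alternatives it ran from 0.00052 to 0.193. Plin2, the main coat protein of hepatocyte droplets, was at 877, 562, 578 and 611 CPM in WT and at 479, 361, 430.3 and 347 in KO. WT replicate 11 was the highest, no library overlapped, and the change was -0.70 (SE 0.17, edgeR adjusted p 0.124, or 0.0474 with no filter on low counts). Fitm1, an endoplasmic reticulum protein of droplet formation, was at 57.1 ± 5.85 CPM in WT against 29.6 ± 4.83 in KO (log2 change -0.95, edgeR adjusted p 0.136), and Mgll, which cleaves monoacylglycerol, at 293 ± 20.6 and 189 ± 47.1 CPM (log2 change -0.63, edgeR adjusted p 0.232). Dgat1, Dgat2, Pnpla2 and Plin3 had changes within 0.1 of 0. The list was not lower throughout.

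**Figure D2:**
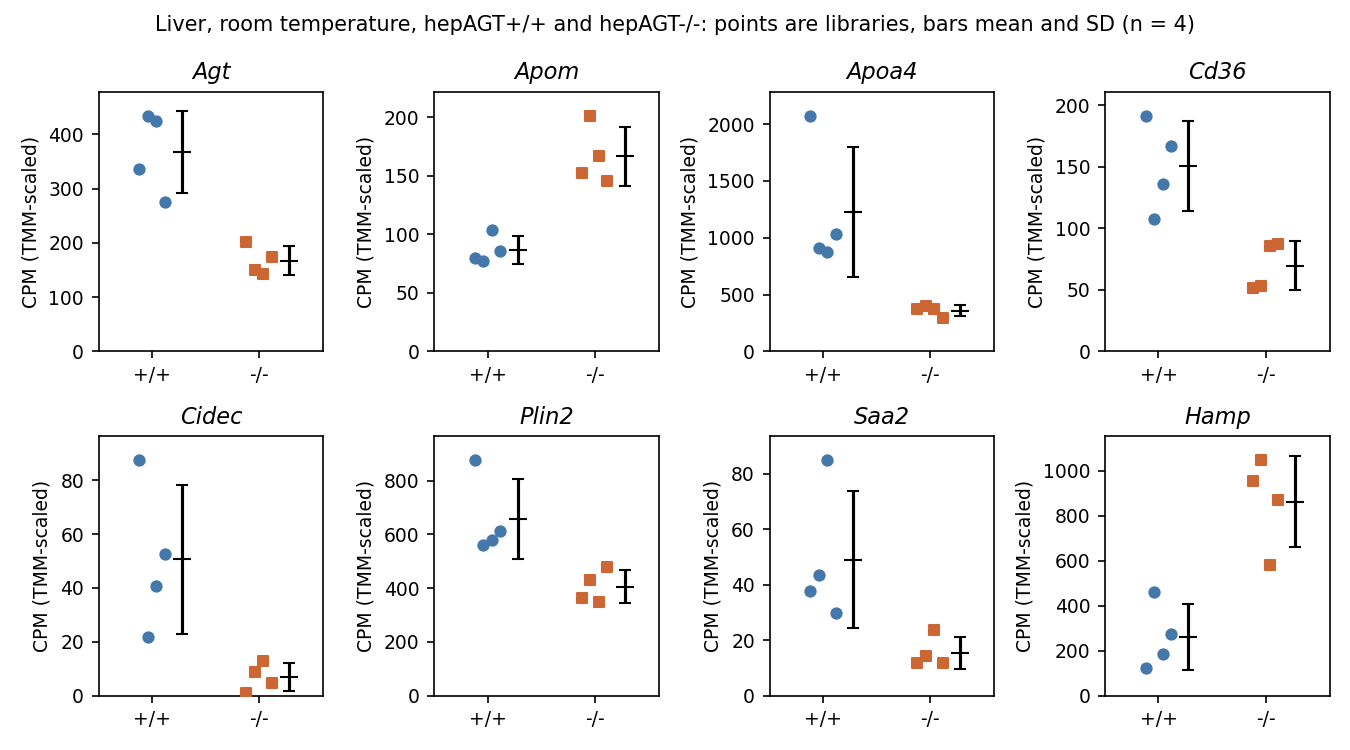
TMM-scaled CPM of 8 genes in the liver libraries at room temperature, WT left (+/+) and KO right (-/-). Points are libraries and bars show mean and SD (n = 4); Apom and Hamp are higher in all KO libraries and the other 6 genes lower, with WT replicate 11 far above its group in Apoa4 and Plin2.

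Fatty acid oxidation and ketone production showed a like pattern with smaller values. Of 28 members tested none was called, and 8 were lower and none higher at a nominal p under 0.05 (all genes 4.95% and 5.27%). All KO libraries lay below all WT libraries in 4 (2.83% of all genes), and the median change was -0.20. Vnn1, a pantetheinase and known PPARα target, was at 121, 69.3, 97.3 and 75.2 CPM in WT and at 43.4, 27.0, 42.1 and 43.6 in KO. Its change was -1.22 (SE 0.25, edgeR adjusted p 0.0797, DESeq2 0.00022). Cpt1a, which carries long-chain fatty acids into mitochondria, was at 533, 477, 530.0 and 487 CPM in WT and at 331, 293, 367 and 354 in KO. The gap between the groups was wider than the spread within either, and the change was -0.59 (SE 0.15, edgeR adjusted p 0.126, DESeq2 0.0144). Ppara, the gene of the receptor itself, had a change of -0.41 (edgeR adjusted p 0.469), and its groups overlapped. Cyp4a10 and Cyp4a14, which PPARα also drives, had changes of 0.31 and 0.59, neither called.

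**Figure D3:**
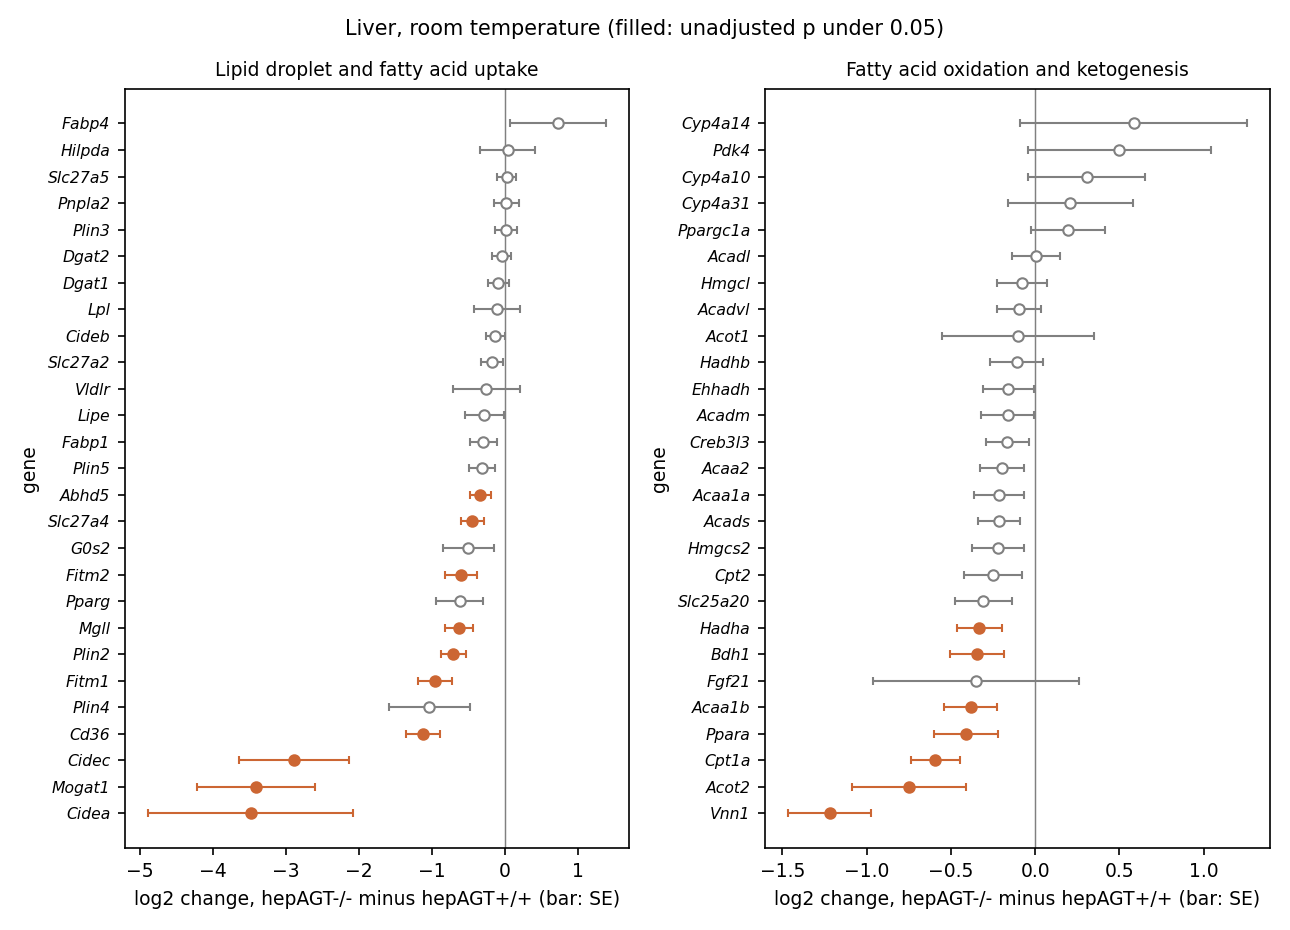
Log2 change (x axis, KO minus WT, bars SE) of the tested members of the lipid droplet and fatty acid uptake list (27 genes, left) and of 27 of the 28 in the fatty acid oxidation and ketogenesis list (right; 1 member is not reported here). Filled points have a nominal p under 0.05; 10 on the left and 7 on the right are filled, all below 0.

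The promoters of Plin2, Cd36 and Cpt1a are shown because these genes were lower together, and because nuclear receptors of the PPAR kind bind sites built from the letters AGGTCA. Capitals mark those letters, which in all 3 windows lie on the opposite strand and so read TGACCT.
Plin2 (chr4:86670010-86670309, minus strand): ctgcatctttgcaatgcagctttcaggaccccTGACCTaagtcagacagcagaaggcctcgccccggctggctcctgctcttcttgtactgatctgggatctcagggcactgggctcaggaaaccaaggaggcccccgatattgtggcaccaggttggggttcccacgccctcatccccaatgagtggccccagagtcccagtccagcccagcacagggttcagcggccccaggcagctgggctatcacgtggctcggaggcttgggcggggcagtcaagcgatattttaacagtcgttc
Cd36 (chr5:17835847-17836146, minus strand): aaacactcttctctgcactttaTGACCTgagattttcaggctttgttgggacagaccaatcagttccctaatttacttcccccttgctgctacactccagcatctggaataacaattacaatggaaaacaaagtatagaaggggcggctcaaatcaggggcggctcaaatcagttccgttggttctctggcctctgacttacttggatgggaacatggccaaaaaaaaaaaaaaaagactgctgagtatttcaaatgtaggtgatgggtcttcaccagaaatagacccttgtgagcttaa
Cpt1a (chr19:3323051-3323350, plus strand): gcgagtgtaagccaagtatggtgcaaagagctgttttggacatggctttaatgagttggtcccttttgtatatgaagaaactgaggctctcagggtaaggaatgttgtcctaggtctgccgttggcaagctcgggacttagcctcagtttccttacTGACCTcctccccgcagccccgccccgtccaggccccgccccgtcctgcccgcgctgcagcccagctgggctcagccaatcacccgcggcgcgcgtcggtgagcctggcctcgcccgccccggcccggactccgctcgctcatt
The matches begin 218, 228 and 94 bases before the start. The window of Apoa4, also lower in all KO libraries, was searched for the same letters and held no match. Of the 21 lipid droplet genes with a window, 7 held AGGTCA on either strand (33.3%), as did 4 of 20 fatty acid oxidation genes (20%) and 18.1% of all genes with a window. The 7 were Plin2, Plin5, Cd36, Fabp1, Slc27a2, Pparg and Abhd5, and the 4 were Cpt1a, Acadvl, Acadm and Creb3l3. Cidec, Cidea, Mogat1, Fitm1 and Mgll, described above as lower, held no match or had no window. The 3 windows shown all hold a match, so they do not stand for the lists. A match is a run of letters and not a measured binding site.

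Genes that make fatty acids gave a smaller count. Of 22 lipogenesis genes none was called, and 3 were lower and 1 higher at a nominal p under 0.05 (all genes 4.95% and 5.27%). Changes below 0 numbered 15 of the 22, and the median change was -0.13. Fasn, fatty acid synthase, was at 1001, 1148, 253 and 1129 CPM in WT and at 515, 707, 1019 and 727 in KO. WT replicate 15 alone stood far below the rest, and the groups overlapped (log2 change -0.25, SE 0.58, edgeR adjusted p 0.936). Srebf1, which drives this pathway, was at 955 ± 254 CPM in WT against 888 ± 168 in KO (log2 change -0.11, edgeR adjusted p 0.925). Its direction was not fixed, turning to 0.01 without KO replicate 19 and 0.07 without WT replicate 12. Scd1, a desaturase and one of the most abundant liver transcripts, was at 29853 ± 8154 CPM in WT against 19849 ± 4290.2 in KO (log2 change -0.59, SE 0.21, edgeR adjusted p 0.289). Mlxipl, which encodes the glucose-sensing factor ChREBP, went the other way, at 621, 666, 278 and 471 CPM in WT and 828, 876, 865 and 916 in KO. It did not overlap between groups (log2 change 0.78, SE 0.24, edgeR adjusted p 0.236, DESeq2 0.0456).

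Lipoprotein and cholesterol genes were mixed. In the apolipoprotein list 1 of 25 was called (Apom), and the median was 0.04. At a nominal p under 0.05, 3 were higher and 3 lower (all genes 5.27% and 4.95%). Mttp, which loads lipid onto apolipoprotein B, was at 345, 331, 331 and 398 CPM in WT and at 290.0, 246, 276 and 254 in KO (log2 change -0.40, SE 0.11, edgeR adjusted p 0.148, DESeq2 0.00612). Apob itself had a change of -0.46 (edgeR adjusted p 0.312), and its groups overlapped. Of 23 cholesterol genes, 19 had a change above 0 and the median was 0.35, but only 2 were higher and 1 lower at a nominal p under 0.05, and none separated the genotypes. Abcb4, the phospholipid pump of bile, was lower in all KO libraries, at 346 ± 22.6 CPM in WT against 240.4 ± 62.1 in KO (log2 change -0.53, edgeR adjusted p 0.234). Among 30 sphingolipid genes Smpd3 was the one called. Asah2, neutral ceramidase, was at 36.4 ± 2.45 CPM in WT against 25.8 ± 2.94 in KO (log2 change -0.49, edgeR adjusted p 0.136), and Cers6, a ceramide synthase, at 26.8 ± 6.40 and 14.2 ± 5.39 CPM (log2 change -0.92, edgeR adjusted p 0.27), both without overlap.

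Some genes of the acute phase, whose products hepatocytes secrete in inflammation, were lower in KO. Of 25 tested none was called, and 7 were lower and 1 higher at a nominal p under 0.05 (all genes 4.95% and 5.27%). The list was mixed in sign, with 11 changes above 0, 14 below and a median of -0.08. Saa2, a serum amyloid A, was at 37.7, 43.4, 84.9 and 29.9 CPM in WT and at 11.7, 11.7, 14.2 and 23.8 in KO. The change was -1.68 (SE 0.46, edgeR adjusted p 0.229, DESeq2 0.0237), and WT replicate 15 was the highest. That library also led WT in Saa1, Saa3, Lcn2 and Hp, at 166, 36.0, 28.1 and 3265 CPM. Cfb, complement factor B, was at 5.83 ± 0.795 CPM in WT against 3.29 ± 0.826 in KO (log2 change -0.83, edgeR adjusted p 0.255).

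The member of that list that was higher at a nominal p under 0.05 was Hamp, hepcidin, the hormone that blocks iron export into plasma. Hamp was at 123, 460.5, 183 and 273 CPM in WT and at 868, 954, 1049 and 582 in KO, so no library overlapped. Its change was 1.73 (SE 0.54, edgeR adjusted p 0.268, DESeq2 0.0406). Hamp2, its near-identical neighbour on chromosome 7, was at 20.2, 28.3, 11.6 and 17.5 CPM in WT and at 48.1, 79.2, 82.5 and 179 in KO (log2 change 2.32, SE 0.42, edgeR adjusted p 0.0797, DESeq2 9.51e-05). Reads can be shared between such copies, and both also overlap the non-coding gene Gm44662 (log2 change 2.08), so the 3 are not independent. Red blood cell markers, lower in KO as given above, went the other way, and their part in the result was not tested.

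Inflammatory, interferon, matrix and cell cycle lists had no called gene. Over all 17594 genes tested, 4.95% were lower and 5.27% higher at a nominal p under 0.05, 5.83% had no overlap, and 8485 had a change below 0. In the inflammation list 2 of 24 were lower and 2 higher at a nominal p under 0.05. Tnfaip3, an inhibitor of NF-κB signalling, was at 5.45 ± 1.22 CPM in WT against 2.32 ± 0.590 in KO (log2 change -1.23, SE 0.29, edgeR adjusted p 0.124, DESeq2 0.0095), and Il18 at 8.35 ± 1.26 and 13.5 ± 3.68 CPM (log2 change 0.69, edgeR adjusted p 0.228), both without overlap. Of 22 interferon response genes, 12 had a change above 0, the median was 0.03, and 3 were lower and none higher at a nominal p under 0.05. The 2 without overlap, Ifit3 and Oas1a, had changes of -0.83 and -0.93 (edgeR adjusted p 0.296 and 0.486). The matrix list had 4 of 26 lower and none higher at a nominal p under 0.05, with a median of -0.37. Col4a1, a basement membrane collagen, was at 26.9 ± 3.50 CPM in WT against 17.7 ± 2.47 in KO (log2 change -0.60, edgeR adjusted p 0.126), and Loxl2, which crosslinks collagen, at 1.96 ± 0.967 and 0.696 ± 0.244 CPM (log2 change -1.49, edgeR adjusted p 0.276). Markers of stellate cells, which lay down liver matrix, stood beside them: 10 of 10 had a change below 0, 4 at a nominal p under 0.05, and their sum ran from 215 to 287 CPM in WT and from 131 to 265 CPM in KO. Hgf, made by stellate cells, was at 7.61 ± 2.02 CPM in WT against 3.02 ± 1.54 in KO (log2 change -1.33, edgeR adjusted p 0.146). The part of these markers in the matrix values was not tested. In the cell cycle list Mcm3 (log2 change -0.89) was lower and Cdkn1b (0.38) higher without overlap. Of its 24 members 3 were higher and 2 lower at a nominal p under 0.05, with a median of -0.64.

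**Figure D4:**
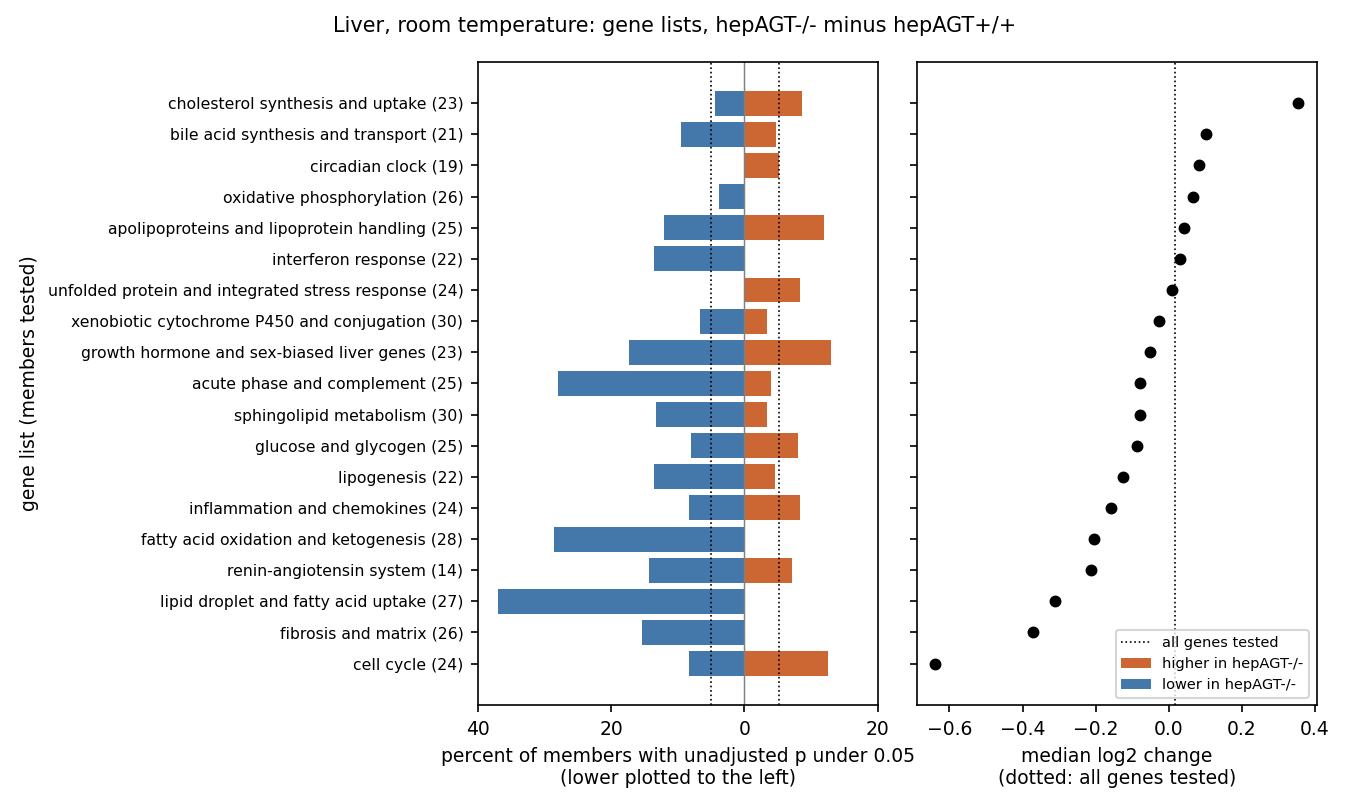
The 19 function lists, with members tested in brackets. Left, percent of members with a nominal p under 0.05, higher in KO to the right and lower to the left, with dotted lines at 5.27% and 4.95% for all genes. Right, median log2 change of each list beside that of all genes (dotted, 0.02). In the left panel, lipid droplet, fatty acid oxidation and acute phase genes have the highest percent lower. In the right panel, the lowest medians are those of the cell cycle (-0.64) and matrix (-0.37) lists.

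DESeq2 called 203 genes (1.15% of those tested), 61 higher (0.347%) and 142 lower, and these include the 15 of edgeR. Among the others, Themis, a gene of T cell selection, was at 17.9, 4.65, 11.6 and 30.5 CPM in WT and 1.62, 0.839, 0.257 and 0.847 in KO. T and NK cell markers summed to 3.68 to 7.68 CPM in WT and 4.01 to 4.89 CPM in KO, less than Themis itself in 3 of the 4 WT libraries. Adgrv1, a very large adhesion receptor, was at 22.2, 6.18, 12.4 and 29.8 CPM in WT and 2.14, 3.10, 4.60 and 4.12 in KO. Gpc1, a heparan sulfate proteoglycan of the cell surface, was at 46.5, 30.0, 54.8 and 34.6 CPM in WT and 9.68, 12.3, 12.3 and 5.50 in KO. None of the 3 overlapped between genotypes, and their edgeR adjusted p were 0.126, 0.097 and 0.0885. WT replicate 12 was the lowest WT library in all 3. Osbpl3, an oxysterol-binding protein, had a change of -2.03 and Sema5b, a semaphorin, one of -1.70 (edgeR adjusted p 0.148 and 0.097).

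Among further increases, Rdh16f2, a retinol dehydrogenase family member, was at 30.7, 39.9, 71.3 and 40.3 CPM in WT and 105, 119, 119 and 89.7 in KO (log2 change 1.25, SE 0.27, edgeR adjusted p 0.097). Clec2d, a lectin that natural killer cells recognise, was at 137 ± 50.2 CPM in WT against 273 ± 54.3 in KO, and Ugt1a6a, a glucuronidating enzyme whose exons overlap those of its cluster, at 12.6 ± 4.03 and 24.4 ± 3.59 CPM. Avpr1a, the vasopressin receptor of hepatocytes, split the KO group: replicates 9 and 10 were at 30.5 and 34.6 CPM and replicates 16 and 19 at 10.4 and 10.8 CPM, with WT at 6.58 to 8.78 CPM. Bcl6, Arntl and Agtr1a had the same 2 KO libraries highest. Malat1 split the KO group along the same line, at 1181 and 1253 CPM in replicates 9 and 10 and 5317 and 4433 in 16 and 19. A link between these splits was not tested. Of 23 growth hormone and sex-biased genes tested, 11 had a change above 0 and 12 below, with a median of -0.05. At a nominal p under 0.05, 3 were higher and 4 lower (all genes 5.27% and 4.95%). The 2 without overlap were Cyp2d9 (log2 change -0.61, edgeR adjusted p 0.126) and Cyp4a12a (-1.31, 0.326), both male-biased and lower. Tk1 and Timm10b had changes of 0.91 and 0.98 (edgeR adjusted p 0.097 and 0.152), and Sdha one of -0.23 (0.461).

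The liver libraries from TN carry other replicate numbers and share no library with those above, although 1 fit estimated the spread of all 16. Each of the 15 genes called at room temperature had a change of the same sign at TN, and 8 were called there (53.3%), against 3.18% of all genes tested. The 8 were Agt, Gm47528, Smpd3, Cntnap1, Slc6a9, Ermp1, Impad1 and Clstn3, all lower (1.85% of all genes were called lower at TN). Agt changed by -1.29 and Slc6a9 by -0.79 at TN, each a little more than at room temperature. The other 13 had smaller changes at TN, against 7723 of all 17594 genes. These 15 were selected by their change at room temperature, so this count is a description. The 3 genes that rose at room temperature were not called at TN: the change there was 0.55 for Apom (adjusted p 0.0941), 0.41 for Cbx7 (0.298) and 0.11 for 9030616G12Rik (0.88), all by edgeR. For Plvap the change at TN was -0.09 (edgeR adjusted p 0.812). The difference between temperatures was tested as an interaction, and edgeR called 0 of 17594 genes, with 1290 at a nominal p under 0.05 (7.33%) and 17 called by DESeq2. Of the 15 genes 5 had a nominal interaction p under 0.05: 9030616G12Rik, Plvap, Scamp5, Cbx7 and 1810055G02Rik.

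At TN, 4 of the 27 lipid droplet genes and 6 of the 28 fatty acid oxidation genes were called, all lower (1.85% of all genes). None of them was called at room temperature, where 15 of all genes were called against 560 at TN. At TN Cd36 changed by -1.10 (adjusted p 0.0159), Cpt1a by -0.69 (0.0137), Scd1 by -1.04 (0.0102) and Mttp by -0.62 (0.00432), by edgeR. The nominal interaction p by edgeR was 0.962 for Cd36, 0.633 for Cpt1a and 0.136 for Scd1. Other genes described above were not called at TN: Plin2 had a change of -0.52 (edgeR adjusted p 0.0878), Cidec of -2.05 (0.152), Vnn1 of -0.82 (0.0762) and Apoa4 of -1.24 (0.0543). Saa2, Tnfaip3, Ifit3 and Mcm3, with all KO libraries below WT at room temperature, had changes of 0.12, 0.20, 0.86 and 0.67 at TN, with edgeR adjusted p of 0.937, 0.804, 0.111 and 0.27 there. Malat1 ran with genotype at TN, at 778 to 2083 CPM in WT and 4093 to 5604 CPM in KO. With its log2 level as a covariate, added after seeing the data, 5 of the 15 genes were called at TN and 13 kept their direction there. Over all genes, that covariate gave 168 calls at TN, against 560 without it. Cd36 and Cpt1a were then not called at TN (edgeR adjusted p 0.0638 and 0.0856), while Scd1 was (0.00045). At room temperature that covariate gave 25 calls (7 higher and 18 lower), which kept 13 of the 15 and lost Clstn3 and Cbx7 (adjusted p 0.0562 and 0.0716).

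**Figure D5:**
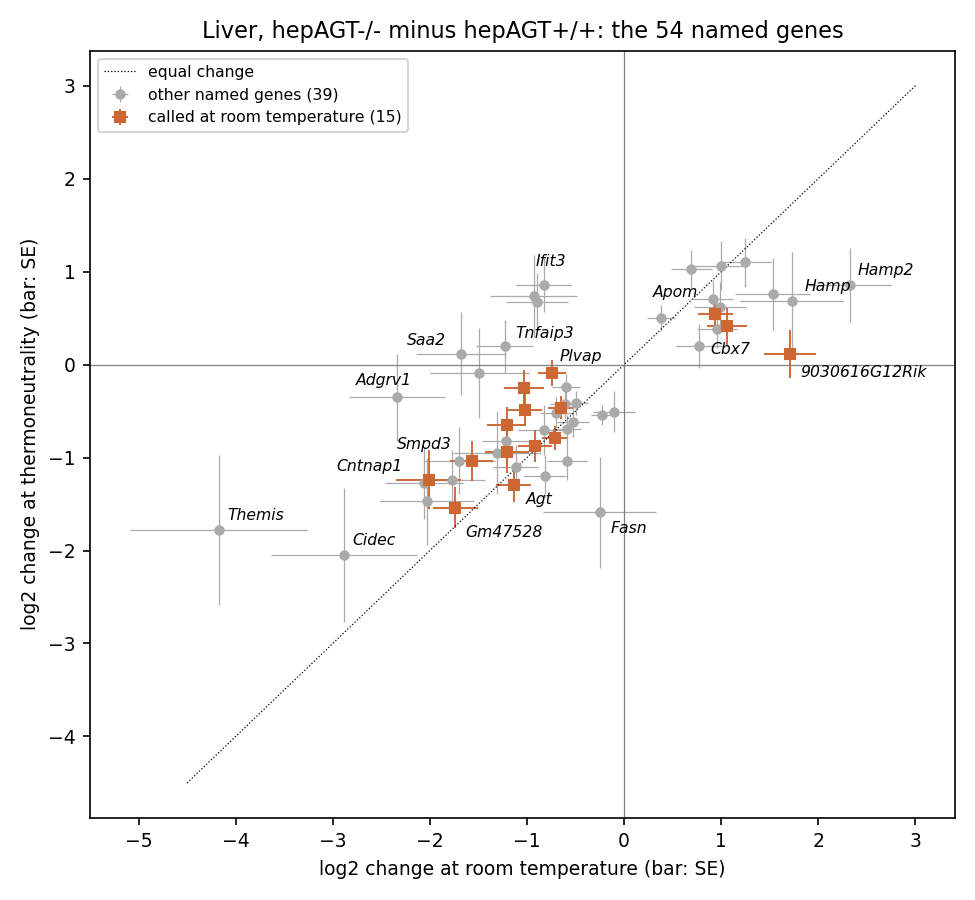
Log2 change, KO minus WT, in liver at room temperature (x axis) and at thermoneutrality (y axis) of the 54 named genes, with SE bars. Squares are the 15 genes called at room temperature, all in the quadrants of equal sign; the dotted line marks equal change.

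In the fat depots of the same housing, few of the 15 genes were called. The depots share replicate numbers with the liver libraries (9, 10 and 19 in KO and 12, 15 and 18 in WT in both depots, and KO 16 in eWAT), and the labels do not say whether a number marks 1 mouse, so the tissues may not be independent. In BAT 13 of them were tested and none was called by edgeR (0.0887% of all genes), with 7 at a nominal p under 0.05 (19.4% of all genes). The change had the liver's sign in 5 of the 13. In eWAT 14 were tested, 11 had the liver's sign and 2 were called by edgeR, Ermp1 (log2 change -0.42, adjusted p 0.0229) and Scamp5 (-0.56, 0.0109), against 4.34% of all genes. DESeq2 called 4 of the 15 genes in BAT and 2 in eWAT, and its share of all genes in each depot was not counted. Agt in eWAT was at 92.4 ± 25.7 CPM in WT against 157 ± 30.4 in KO (log2 change 0.76, edgeR adjusted p 0.531).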

How the data were processed

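RNA had been sequenced from snap-frozen tissue after NEBNext Ultra library preparation, in paired-end mode, per the labels' protocols. The authors deposited, for each library, raw counts by gene. The submitters' processing notes name fastp, STAR 2.6.1d, featureCounts 1.5.0-p3 and GRCm38. The annotation release and strand setting are not given in the sources used here. Of 56748 Ensembl identifiers 91.8% had a symbol, and unnamed genes stayed in the fits. Coordinates are from GENCODE M21 (GRCm38). Promoters are from RefSeq (GRCm38.p6) and 43 of 54 named genes had one.

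Counts of the 16 liver libraries, 4 groups of 4, were fitted with edgeR 4.0.16 in R 4.3.3: scaling was by TMM, filterByExpr (10 counts) removed low genes, and robust quasi-likelihood F tests were adjusted by Benjamini-Hochberg over 17594 genes. BAT and eWAT were fitted likewise. Marker sums and the Malat1 level use plain library totals. Alternatives were RLE scaling, no filter, at least 1 CPM in 4 libraries, DESeq2 1.42.0, limma 3.58.1 voom, the 8 libraries alone, and leaving out each library. The fit with Malat1 as a covariate, added after seeing the data, is also counted among the 15 alternatives of a gene at room temperature. Gene lists are described by counts and medians. The comparison, the lists and the naming rule were chosen with earlier results of these data known. Named were Agt, every called gene, 6 fixed lipid genes, up to 2 genes of each list by unadjusted p without overlap, and up to 8 genes per direction called by DESeq2 only. Other list members and neighbours were named after their values were seen, and a few genes are not reported here. The procedure was tested on simulated data. Nothing in the labels says whether libraries of 1 group share a litter or cage, so p-values measure the spread between these samples.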

Additional observations from a re-analysis of the deposited data

Results flagged for a closer look

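In groups of 4 libraries, 1 library can stand apart from the other 3 by more than Dixon's 95% limit, and chance alone gives about 1 such group in 20. Among the 54 named genes in both genotypes at room temperature, 6 of 108 groups (5.56%) did so. WT replicate 15 had Fasn at 253 CPM, against 1001 to 1148 CPM in the other WT libraries. WT replicate 11 had Plin2 at 877 CPM against 562 to 611 CPM, and Apoa4 at 2080 CPM against 878 to 1033 CPM. Without that library the change was -0.53 for Plin2 and -1.38 for Apoa4. In KO, replicate 10 had Vnn1 at 27 CPM against 42.1 to 43.6 CPM, replicate 9 had Oas1a at 0.647 CPM against 2.48 to 2.77 CPM, and replicate 19 had Timm10b at 7.97 CPM against 6.98 to 7.13 CPM.

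Of the 54 named genes, compared in BAT and eWAT, 5 had every KO library on one side of WT in liver and on the other side in a depot. Many of the 54 were named because their groups did not overlap in liver, and the share of all genes with such opposite sides was not counted. The difference between tissues was not tested. Agt, lower in liver, had a change of 0.763 in eWAT on the log2 scale (edgeR adjusted p 0.531). Cntnap1 and Plvap, lower in liver, had changes of 0.727 and 1.23 in BAT (edgeR adjusted p 0.111 and 0.127), at 37.0 ± 9.50 CPM in WT against 61.2 ± 2.56 in KO for Cntnap1. Abcb4, below WT in all KO livers, had a change of 1.23 in BAT (edgeR adjusted p 0.263), at few counts there. Sdha, a subunit of respiratory complex II, was higher in eWAT by 0.562 (edgeR adjusted p 0.00619) and lower in liver without a call.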

How the results depend on the processing

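No paired analysis was possible because the 4 KO and 4 WT liver libraries at room temperature share no replicate number. The 15 calls became 25 with no filter on low counts, 9 with at least 1 CPM in 4 libraries, 203 with DESeq2 and 25 with Malat1 as a covariate. Of the 15, 1810055G02Rik, Slc6a9, Plvap, Impad1, Cbx7 and Scamp5 were not called with only the 8 libraries compared. By limma voom, Cntnap1, Ermp1, Plvap, Impad1, Cbx7 and Scamp5 were not called. Leaving out 1 library gave from 4 calls (without WT replicate 18) to 19 (without WT replicate 12), with 5 without WT replicate 11 and 7 without KO replicate 9 or 10. Agt kept its direction and call in all 15 alternatives, at -1.25 to -1.05 when a library was left out. The 8 genes called at both temperatures became 88 with DESeq2 and 5 with limma voom or with only the 8 libraries compared, and leaving out 1 library of either temperature gave from 3 to 23. The interaction stayed at 0 calls when any library was left out and reached 17 with DESeq2. In BAT the count of the 15 genes called went from 0 to 1 with no filter and to 4 with DESeq2, with 0 to 3 when a library was left out. In eWAT it went from 2 to 0 with only the 8 libraries compared, and ran from 0 to 3 when a library was left out. Of the 54 named genes, Srebf1 reversed its sign, to 0.01 without KO replicate 19 and 0.074 without WT replicate 12; over all libraries left out it ran from -0.22 to 0.074. The cause of these shifts was not tested. Depth was at least 23711728 counts in each library and counting error was not separated from the variation between mice. With 4 mice a group, precision is limited.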

Other observations

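Among long non-coding genes, higher values outnumbered lower ones in KO at room temperature. Of 2422 tested, which include transcripts whose annotation awaits experiment, 142 (5.86%) were higher and 51 (2.11%) lower at a nominal p under 0.05. Over all genes tested 5.27% were higher and 4.95% lower, so the class differed mainly in its share of lower genes. Its median change was 0.18, while 718 of 13604 protein-coding genes were higher and 794 lower, with a median of 0.00. The nuclear RNA Neat1 was at 601, 889, 174 and 901 CPM in WT and at 1141, 902, 1138 and 934 in KO, nearly meeting but without overlap (log2 change 0.68, edgeR adjusted p 0.559). Malat1 overlapped between genotypes, as given above.

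Genes for leaving the endoplasmic reticulum were gathered after their values were seen, so their count is no test. Of 28 coat and cargo genes 22 had a change below 0, against 8485 of all 17594 genes tested. At a nominal p under 0.05, 6 were lower and none higher (all genes 4.95% and 5.27%), and none was called by edgeR. Sec24d, a coat protein that selects cargo, was at 83.8 ± 4.14 CPM in WT and 55.4 ± 8.10 in KO (log2 change -0.60, edgeR adjusted p 0.0797).

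Ang and Rnase4, secreted ribonucleases that share promoters, had higher means in KO and were also named after their values were seen. Rnase4 was at 432, 519.9, 683 and 346 CPM in WT and at 900.3, 912, 766 and 904 in KO (log2 change 0.81, edgeR adjusted p 0.097), without overlap, with a change of 1.30 at TN (edgeR adjusted p 0.00126). With Malat1 as a covariate both were called at room temperature, at 1.18 for Ang and 0.97 for Rnase4.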
